A study of Mus musculus with 59 samples.

Results

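The genes described here are 8 genes of the mammalian circadian clock: Cry1, Cry2, Per1, Per2, Clock, Nr1d1, Nr1d2 and Dbp. They were picked by symbol, mapped from Ensembl identifiers, out of 39017 gene IDs in the RNA tables, and all 8 were found and passed the filter on low counts in every fit. The set was drawn up after the fall of Cry1 at 24 and 48 h after loss of a Microprocessor subunit had been seen in these libraries, so the values at those times are given as descriptions without a test. The study asked what Microprocessor, the nuclear complex of DROSHA and DGCR8 that cuts microRNA precursors, and METTL3, the enzyme that writes N6-methyladenosine on RNA, do on chromatin and to RNA levels in mouse embryonic stem (ES) cells. RNA depleted of ribosomal RNA was sequenced in 35 libraries, and METTL3 bound to chromatin was mapped by precipitation from cells that carry Rosa26:BirA and METTL3 FLAG/Avi.

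Of the RNA libraries, 23 came from 2 floxed ES cell lines of a 129xC57Bl6 hybrid background. The DGCR8 line carries Rosa26:CRE and DGCR8 Flox/Flox (12 libraries). The Drosha line is labelled Drosha Flox/Flox, with no CRE named in its labels (11 libraries). Each line was exposed to 0.5 µM 4-hydroxytamoxifen (4OHT), which activates a tamoxifen-dependent Cre, for 24, 48 or 96 h, or left untreated for the same time, with 2 libraries per group and 1 for the Drosha line with 4OHT at 96 h. No line without floxed alleles was given 4OHT, so effects of the drug and of the deletion cannot be told apart. The other 12 libraries came from 4 Mettl3 knockout lines (1d1, 3xU, 1d2 and 2c4d) and from parental 1 and parental 2, each kept for 1 h at 42 °C or held at 37 °C. All of these also carry Rosa26:BirA and DGCR8 FLAG/Avi. The labels do not say whether the knockout lines arose independently or whether parental 1 and 2 are separate lines. Nor do they say whether replicates of the floxed lines came from separate cultures. The p-values therefore set differences only against the spread among these samples, which may be technical. That spread is shared across the groups of a fit. For some of the floxed libraries (the first 4OHT and the second control library at every time) the title and the source name disagree; the title was followed.

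Total counts ran between 9578093 and 12611084 per library in the floxed set and between 7102867 and 13579892 in the heat set. Under the titles, Drosha RNA was 23.4 to 29.1 CPM (counts scaled to library size) in the 5 libraries of the Drosha line with 4OHT, against 82.4 to 126 CPM in its 6 untreated libraries. Dgcr8 RNA, which Microprocessor itself is known to cut, was 223 to 290 CPM with 4OHT in the DGCR8 line, against 105 to 145 CPM untreated; counts over the whole gene do not check the deletion. Mettl3 RNA was 20.5 to 40.8 CPM in the 8 knockout libraries, against 60.4 to 71.5 CPM in the 4 parental ones. The heat-shock gene Hspa1a was 163 to 246 CPM at 42 °C, against 0.657 to 1.56 CPM at 37 °C. The summed level of 8 ES cell markers was 2264 to 4078 CPM in the floxed set and 2220 to 4587 CPM in the heat set. That of 6 fibroblast markers was at most 44.1 CPM. In the floxed set Col1a1 reached 35.3 CPM and Thy1 had a median of 3.57 CPM, while Lum had a median of 0 CPM.

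The circadian clock is a feedback loop of transcription. CLOCK and its partner ARNTL (BMAL1) bind E-box sequences and switch on the Per and Cry genes, whose proteins in turn repress CLOCK and ARNTL; a second loop runs through NR1D1 and NR1D2 (REV-ERB alpha and beta), repressors that compete with ROR activators, and DBP carries the rhythm to D-box genes. Undifferentiated mouse ES cells are known to lack a circadian rhythm of these RNAs, which appears as the cells differentiate. The libraries were taken at fixed times after treatment and hold no time course within a day.

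The sequence just upstream of the transcription start is shown for Cry1, Clock and Nr1d2, which passed the test at 96 h in both floxed lines, and for Nr1d1, which was lower at 42 °C in all 6 pairs of heat samples and was called in the knockout lines only with the line as a block. Each is the 250 bases before a RefSeq start on GRCm38.p6 (mm10), written 5′ to 3′ on the gene's strand, all 4 genes being on the minus strand. Capitals mark the E-box CACGTG, its variant CACGTT and the ROR core site AGGTCA, searched on both strands; the variant appears as AACGTG and the core site as TGACCT when read from the other strand. The D-box TTATGTAA was searched too and was in none of them. These motifs did not overlap each other in the windows shown.
Cry1, chr10:85185055-85185304: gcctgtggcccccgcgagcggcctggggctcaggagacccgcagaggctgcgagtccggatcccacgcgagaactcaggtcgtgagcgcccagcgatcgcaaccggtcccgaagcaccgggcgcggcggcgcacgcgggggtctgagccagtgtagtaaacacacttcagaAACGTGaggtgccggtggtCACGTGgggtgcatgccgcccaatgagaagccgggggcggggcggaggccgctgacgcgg
Clock, chr5:76304793-76305042: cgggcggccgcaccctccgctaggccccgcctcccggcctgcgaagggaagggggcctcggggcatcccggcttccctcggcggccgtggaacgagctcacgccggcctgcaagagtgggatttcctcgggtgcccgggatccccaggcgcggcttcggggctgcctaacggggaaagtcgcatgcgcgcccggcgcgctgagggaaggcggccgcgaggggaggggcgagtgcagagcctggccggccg
Nr1d2, chr14:18239107-18239356: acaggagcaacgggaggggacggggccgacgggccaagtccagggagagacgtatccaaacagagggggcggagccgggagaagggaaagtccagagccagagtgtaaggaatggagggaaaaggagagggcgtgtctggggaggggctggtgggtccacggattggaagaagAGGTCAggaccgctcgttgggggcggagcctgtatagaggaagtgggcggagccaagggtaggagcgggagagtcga
Nr1d1, chr11:98775378-98775627: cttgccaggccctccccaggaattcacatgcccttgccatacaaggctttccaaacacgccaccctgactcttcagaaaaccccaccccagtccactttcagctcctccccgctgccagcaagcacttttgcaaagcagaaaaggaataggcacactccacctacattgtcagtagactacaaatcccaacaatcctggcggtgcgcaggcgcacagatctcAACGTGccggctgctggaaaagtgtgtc

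The Cry1 window held 1 E-box that began 60 bases before the start and 1 variant that began 79 bases before it. The Nr1d1 window held 1 variant, 28 bases before the start, and the Nr1d2 window 1 ROR core site, 77 bases before it. The window at the first of 3 listed Clock starts held none of the 4 motifs, and the window at the third held 1 ROR core site. Of 32851 promoter windows of the same length, 6.02% held the E-box, 3.85% the variant, 14.0% the ROR core site and 0.819% the D-box. Among the other members, Cry2 had 1 variant, the first of 2 Per1 starts had 1 E-box and 1 ROR core site, and Dbp had none of the 4. Per2 was not searched.

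In untreated cells of the floxed lines the 8 genes spanned a wide range of levels per length (RPKM, CPM divided by the deposited gene width in kilobases). Cry1, a repressor of the loop, was highest, at 21.8 ± 2.91 RPKM (SD, n = 12 libraries). Nr1d2 followed at 6.45 ± 0.762 RPKM and the activator Clock at 5.68 ± 0.774 RPKM, and these neighbours overlapped. Cry2 was at 2.42 ± 0.296, Nr1d1 at 2.13 ± 0.443, Per1 at 1.82 ± 0.288 and Dbp at 1.39 ± 0.363 RPKM; in this order each gene overlapped the next. Per2 was lowest, at 0.383 ± 0.114 RPKM, with only 14 to 35 counts per library, and lay below every other member. These are bulk levels, in which fewer cells expressing a gene and less RNA per cell cannot be told apart.

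**Figure D1:**
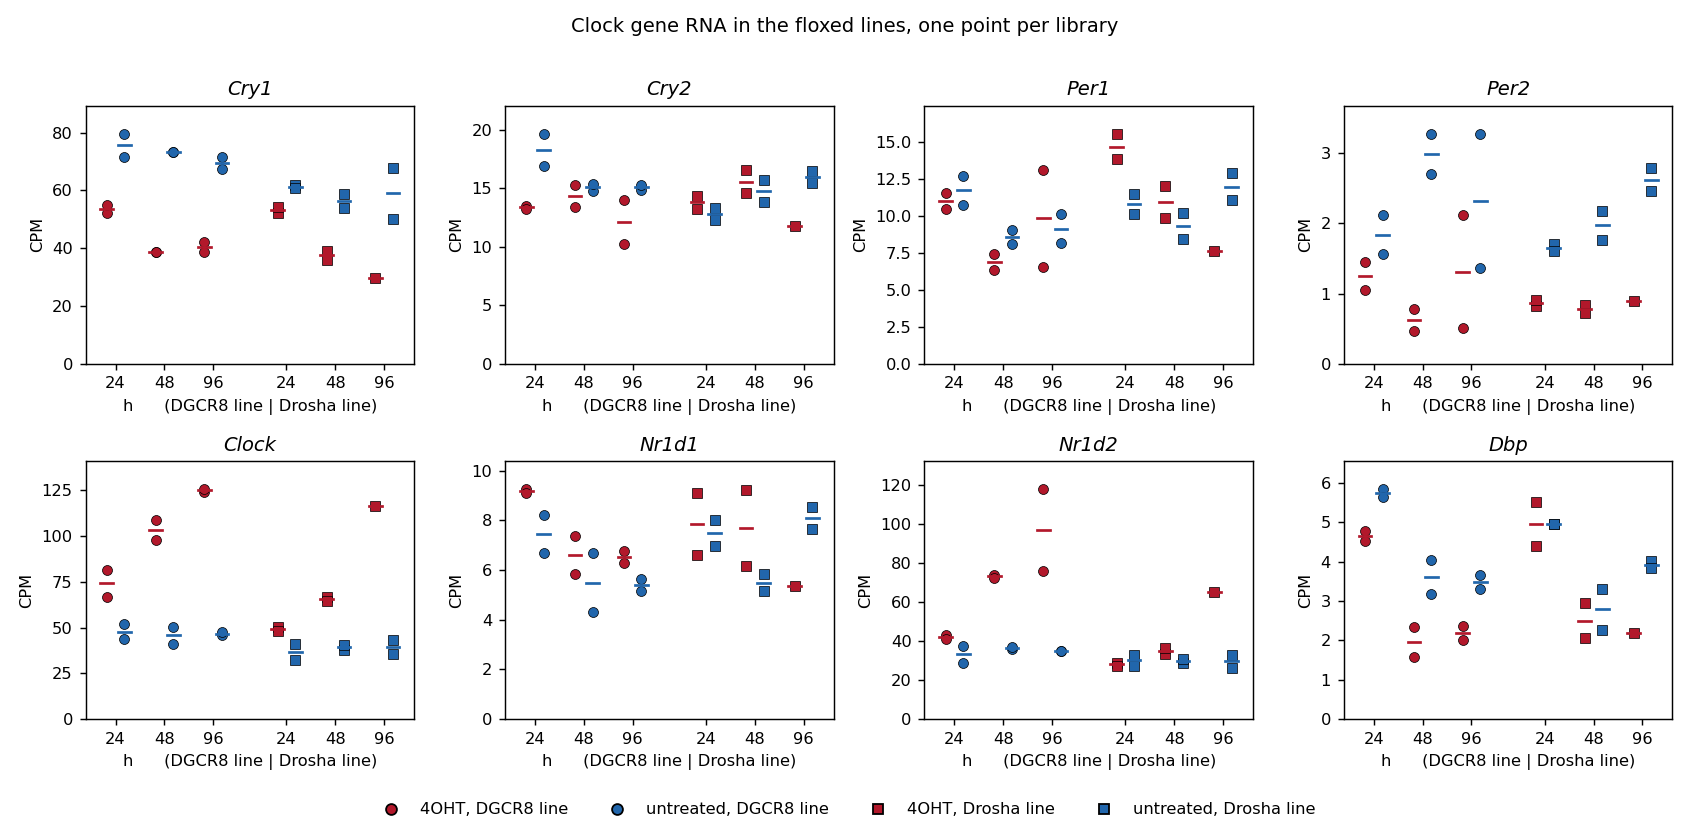
Level of each clock gene (CPM, linear axis from 0) in the floxed lines by hours of treatment; each point is 1 library, bars are group means, red is 4OHT and blue untreated, circles the DGCR8 line and squares the Drosha line. Cry1 lay lower and Clock higher with 4OHT at all 3 times in both lines, while Per1 and Nr1d1 show no common direction.

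Among the repressors, Cry1 was lower with 4OHT already at 24 h. In the DGCR8 line it was at 52.1 and 54.9 CPM with 4OHT, against 79.7 and 71.6 CPM untreated (log2 fold change -0.49 ± 0.11, SE). At 48 h it was at 38.7 and 38.5 CPM, against 73.1 and 73.2 CPM untreated (-0.91 ± 0.11). In the Drosha line Cry1 was at 52.2 and 54.4 CPM with 4OHT at 24 h, against 61.9 and 60.8 CPM untreated (-0.20 ± 0.13). At 48 h it was at 39.2 and 35.8 CPM, against 53.9 and 58.9 CPM untreated (-0.59 ± 0.13). No 4OHT library reached the level of an untreated one of its line and time. These 4 comparisons chose the gene set and carry no test.

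The 96 h libraries were not among those whose Cry1 fall prompted the choice. Yet the fit of each line drew its spread from 24, 48 and 96 h together, and earlier results of these data were known. At 96 h Cry1 was at 38.7 and 42.3 CPM with 4OHT in the DGCR8 line, against 71.6 and 67.5 CPM untreated. In the single Drosha library with 4OHT it was at 29.7 CPM, against 67.7 and 50.2 CPM untreated; the fit assumes that this lone library varies like the other groups. The groups again did not overlap. With 1 or 2 libraries a group, non-overlap in this and the other comparisons can arise easily by chance. Its share over all genes was not counted. Cry1 fell in both lines by edgeR's quasi-likelihood test with Benjamini-Hochberg adjustment over all genes, with a log2 fold change of -0.78 ± 0.11 in the DGCR8 line (adjusted p = 0.00198) and -0.99 ± 0.17 in the Drosha line (adjusted p = 0.000955).

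Clock, the activator of the loop, moved the other way at every time. In the DGCR8 line it was at 81.6 and 66.5 CPM with 4OHT at 24 h, against 43.5 and 51.8 CPM untreated (log2 fold change 0.64 ± 0.15, not tested). At 48 h it was at 97.8 and 109 CPM, against 41.1 and 50.3 CPM untreated (1.19 ± 0.15, not tested). At 96 h it was at 124 and 126 CPM, against 45.7 and 47.6 CPM untreated. The 4OHT libraries stood above all untreated ones at each time, and the last difference passed the test (1.42 ± 0.15, edgeR quasi-likelihood, adjusted p = 0.000508). In the Drosha line Clock was at 50.5 and 48.2 CPM at 24 h, 66.5 and 64.3 CPM at 48 h and 116 CPM at 96 h with 4OHT. Untreated libraries of that line lay between 32.3 and 43.0 CPM. The 96 h difference there was 1.56 ± 0.15 (edgeR quasi-likelihood, adjusted p = 1.2e-05).

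Nr1d2, a repressor of the second loop, rose at 96 h in both lines. It was at 118 and 75.8 CPM with 4OHT in the DGCR8 line, against 34.9 and 34.7 CPM untreated (log2 fold change 1.47 ± 0.19, edgeR quasi-likelihood, adjusted p = 0.00148). In the Drosha line it was at 65.0 CPM with 4OHT, against 33.0 and 26.4 CPM untreated (1.13 ± 0.15, edgeR quasi-likelihood, adjusted p = 0.000217). At 48 h its values differed between lines in size: 73.8 and 72.3 CPM with 4OHT in the DGCR8 line, against 35.8 and 36.9 CPM untreated, and 33.1 and 36.4 CPM in the Drosha line, against 28.5 and 30.5 CPM untreated. That difference was not tested. At 24 h in the Drosha line the groups overlapped.

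Its relative Nr1d1 gave no such pattern. At 96 h it was at 6.30 and 6.76 CPM with 4OHT in the DGCR8 line, against 5.15 and 5.62 CPM untreated, and at 5.37 CPM in the Drosha line, against 7.64 and 8.53 CPM untreated. Neither difference passed the test (adjusted p = 0.483 and 0.16, edgeR quasi-likelihood). The last 1075 bases of Nr1d1 (chr11:98767932-98775377) overlap Thra, the thyroid hormone receptor alpha gene; the strand used in counting is not given in the sources used here, so reads of both cannot be told apart there. Thra was at 4.28 and 9.55 CPM with 4OHT at 96 h in the DGCR8 line, against 5.64 and 6.84 CPM untreated.

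**Figure D2:**
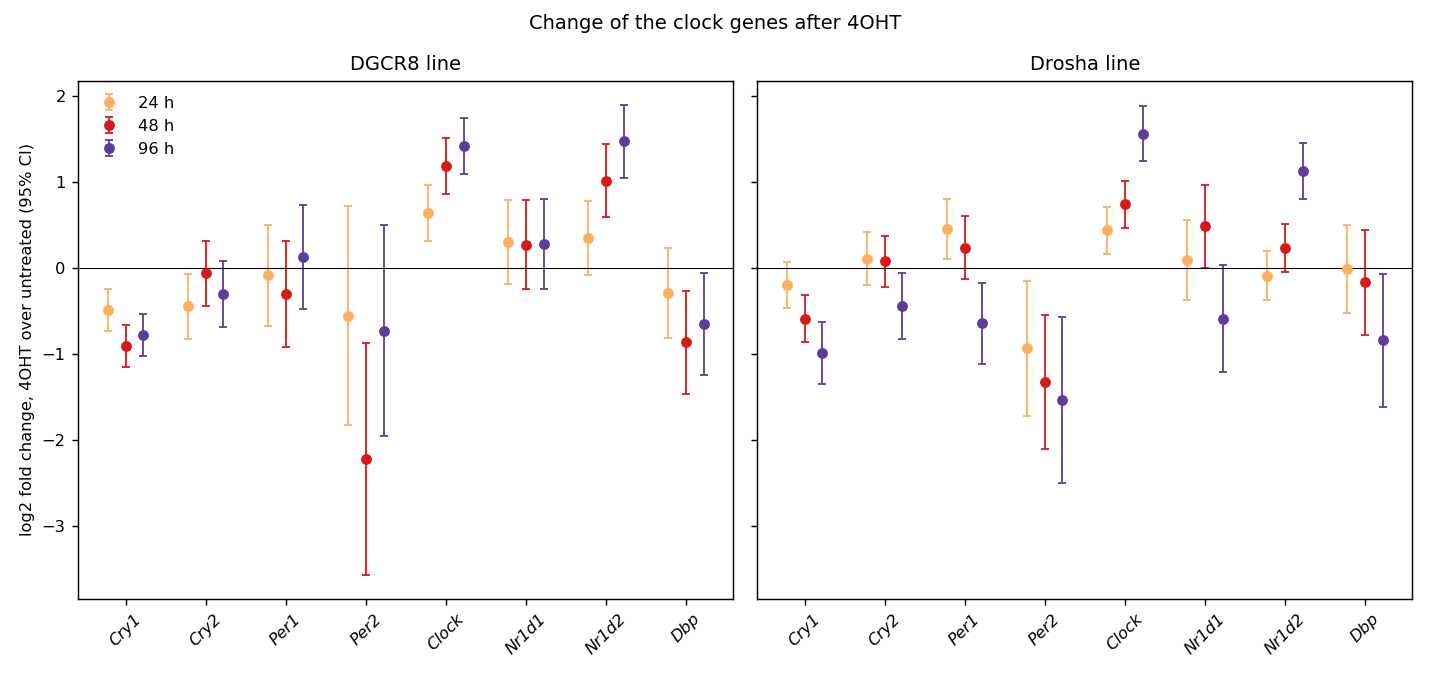
Log2 fold change of each clock gene, 4OHT over untreated, at 24, 48 and 96 h. The DGCR8 line is on the left and the Drosha line on the right. Points are edgeR estimates and bars 95% confidence intervals. Bars at 24 and 48 h are descriptions without a test, since those times chose the gene set. Clock was at 0.64, 1.19 and 1.42 in the DGCR8 line at 24, 48 and 96 h, and Cry1 was below 0 at all 3 times in both lines; intervals for Per2 are wide.

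The Period genes, repressors that act with the cryptochromes, were low in counts and less uniform. Per2 had 5 and 8 counts with 4OHT at 48 h in the DGCR8 line (0.470 and 0.784 CPM), against 34 and 28 counts untreated (3.27 and 2.71 CPM). In the Drosha line it was at 0.830 and 0.716 CPM at 48 h with 4OHT, against 1.77 and 2.18 CPM untreated. At 96 h the DGCR8 libraries overlapped, with 0.504 and 2.11 CPM with 4OHT, against 1.36 and 3.28 CPM untreated (log2 fold change -0.73 ± 0.56, edgeR adjusted p = 0.433). In the Drosha line Per2 fell at 96 h, to 0.894 CPM with 4OHT, against 2.46 and 2.78 CPM untreated (-1.54 ± 0.45, edgeR adjusted p = 0.0234).

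Per1 fell in the Drosha line at 96 h, where it was at 7.65 CPM with 4OHT, against 11.1 and 12.9 CPM untreated (-0.65 ± 0.22, edgeR adjusted p = 0.0477). In the DGCR8 line it was at 6.55 and 13.1 CPM with 4OHT, against 8.17 and 10.1 CPM untreated, and the groups overlapped (0.13 ± 0.27, edgeR adjusted p = 0.807). At 24 h in the Drosha line both 4OHT libraries were above the untreated ones, at 15.6 and 13.8 CPM, against 10.2 and 11.5 CPM. Leaving out control replicate 2 of the Drosha line at 96 h ended both calls there (log2 fold change -0.53 for Per1 and -1.45 for Per2). Fitting only the compared groups ended both as well (-0.64 and -1.53). Per1 also lost its call with DESeq2 (-0.65) and with a replicate block (-0.63). In that line Per1 kept its call under 4 of 8 alternatives and Per2 under 5 of 7.

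Cry2, the second cryptochrome, was at 10.2 and 14.0 CPM with 4OHT at 96 h in the DGCR8 line, against 14.9 and 15.3 CPM untreated, and at 11.7 CPM in the Drosha line, against 16.4 and 15.4 CPM untreated. Dbp, the output factor, was at 2.02 and 2.37 CPM with 4OHT at 96 h in the DGCR8 line, against 3.31 and 3.65 CPM untreated, and at 2.19 CPM in the Drosha line, against 4.02 and 3.83 CPM untreated. Both genes were lower in every 4OHT library at 96 h, and neither passed the test in 1 line alone. How many of all genes separated in this way was not counted. Non-coding genes or a pseudogene also lie within Per2 (Gm35591), Cry2 (D930015M05Rik) and Clock (Gm7467 and Ube2n-ps1), with the same limit on telling reads apart. The end of Dbp (741 bases) overlaps Sphk2, a sphingosine kinase gene on the other strand, which was at 7.43 and 10.2 CPM with 4OHT at 96 h in the DGCR8 line, against 10.5 and 11.0 CPM untreated.

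Counted over the set at 96 h, 2 of 8 members rose and 1 fell in the DGCR8 line, where 8.25% of 14973 tested genes were called higher and 5.22% lower. In the Drosha line 2 rose and 3 fell, where 12.7% of 16262 genes were called higher and 11% lower. As the mean of both lines, 2 rose and 4 fell (Cry1, Per2, Dbp and Cry2), where 15.1% of 16606 genes were called higher and 13% lower. Over these genes the median size of the log2 change was 0.815 for the members and 0.323 for all genes tested. The members include Cry1, whose earlier fall prompted the set, and Per2 and Dbp, which had few counts. The 2 medians are a description, and their difference was not tested. The mean changes were 1.49 ± 0.11 for Clock, 1.30 ± 0.13 for Nr1d2, -0.88 ± 0.10 for Cry1, -1.13 ± 0.39 for Per2, -0.75 ± 0.21 for Dbp and -0.37 ± 0.12 for Cry2 (SE). Their edgeR quasi-likelihood adjusted p-values were 6.75e-08, 1.95e-06, 6.73e-06, 0.0363, 0.0146 and 0.0319 in that order.

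The Per2, Cry2 and Dbp calls of both lines rested on single libraries or settings. Per2 lost its call without 4OHT replicate 1 or control replicate 2 of the DGCR8 line or either control of the Drosha line (adjusted p = 0.0781, 0.205, 0.0548 and 0.0728 by edgeR). Cry2 lost it without 4OHT replicate 1 or either control of the DGCR8 line or control replicate 1 of the Drosha line (adjusted p between 0.0565 and 0.106 by edgeR). Dbp missed the threshold with DESeq2 (adjusted p = 0.0555). Per1, not called over both lines, was called lower without 4OHT replicate 2 of the DGCR8 line (-0.56, edgeR adjusted p = 0.0112).

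No member's change at 96 h differed between the lines by edgeR's test of the difference, in which 0 of 8 were called, 1 (Nr1d1) had an unadjusted p under 0.05, DESeq2 called 0 and 0.181% of all genes were called. For Cry1 the DGCR8 minus Drosha difference was 0.21 with a 95% interval of -0.21 to 0.62, and for Clock -0.15 with an interval of -0.61 to 0.32. For Per1 it was 0.78, with an interval of -0.02 to 1.58. Without 4OHT replicate 1 of the DGCR8 line the Per1 difference was 1.18 and passed (edgeR adjusted p = 0.0189), in a fit that called 1876 of 16585 genes.

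When the DGCR8 line at 96 h was fitted from its own 4 libraries alone, none of its 3 calls held (adjusted p = 0.0963 for Cry1, 0.0699 for Clock and 0.0797 for Nr1d2), and 0 of 14103 genes were called. The 96 h libraries also differed in makeup. The mitochondrial ribosomal RNA mt-Rnr2 took 27.1% and 9.55% of counts in the 2 DGCR8 libraries with 4OHT, against 15.4% and 12.8% untreated, and 21.3% in the single Drosha library with 4OHT, against 11.8% and 11.7% untreated. With mitochondrial genes left out, the same number of members was called in each line. The summed level of 5 neuroectoderm markers was 143 to 180 CPM with 4OHT at 96 h in the DGCR8 line, against 84.6 to 85.1 CPM untreated, and 172 CPM in the Drosha line, against 194 to 199 CPM untreated. That of 6 primitive endoderm markers was 42.3 to 49.2 CPM with 4OHT in the DGCR8 line, against 45.8 to 48.3 CPM untreated, and 105 CPM in the Drosha line, against 61.2 to 62.9 CPM untreated. The part of these in the clock gene values was not tested.

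**Figure D3:**
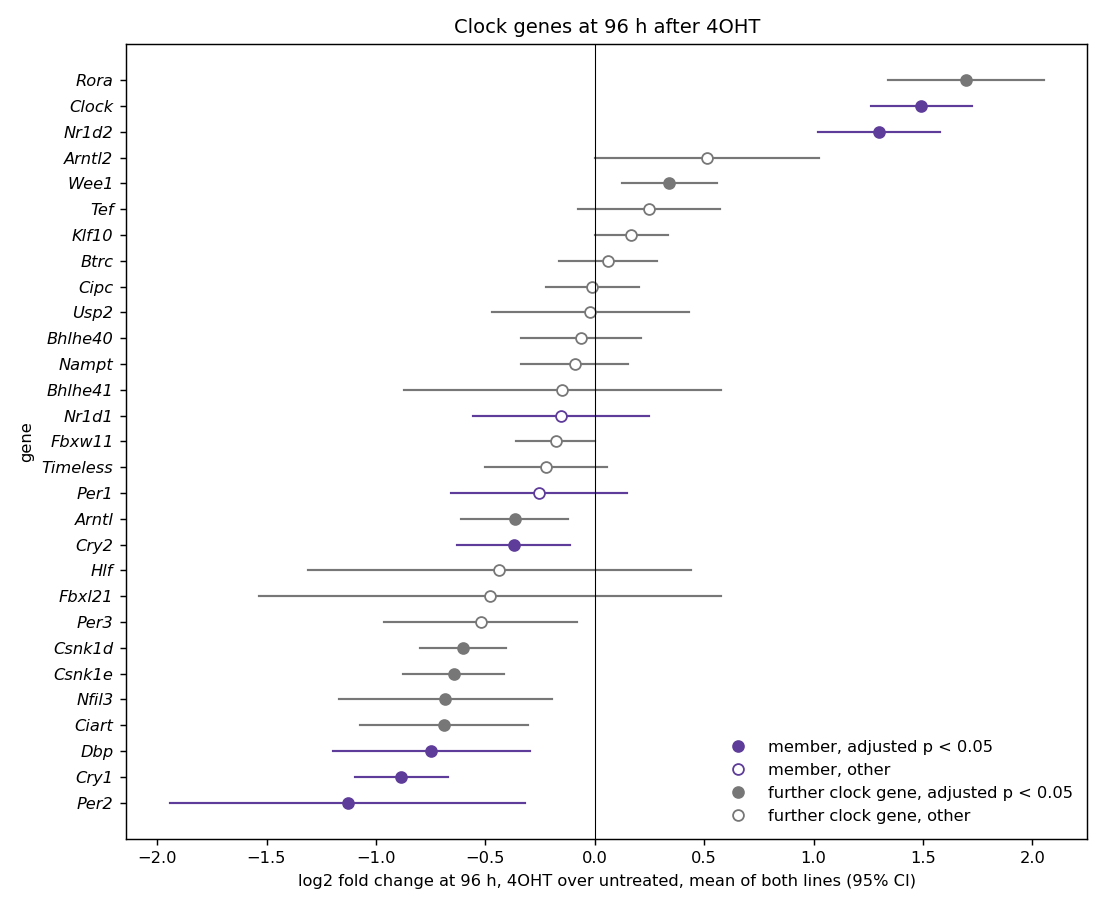
Log2 fold change at 96 h, 4OHT over untreated, as the mean of both lines, for the 8 members (purple) and 21 further clock genes (grey), with 95% confidence intervals; filled points had an adjusted p below 0.05. Rora, Clock and Nr1d2 stand highest at 1.70, 1.49 and 1.30, and Per2 and Cry1 lowest at -1.13 and -0.88.

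A list of 25 further clock genes gave 22 that could be tested in the fit of both lines; the other 3 were too low. As the mean of both lines at 96 h, 3 rose (Rora and Wee1 among them), 5 fell (Csnk1d, Csnk1e, Ciart, Arntl and Nfil3) and 14 did not pass, where 15.1% of all genes were called higher and 13% lower. The median size of change was 0.353 in the list, against 0.323 over all genes. Rora, the ROR activator that competes with the REV-ERB repressors, was at 20.5 and 19.1 CPM with 4OHT in the DGCR8 line, against 5.54 and 4.68 CPM untreated, and at 10.2 CPM in the Drosha line, against 3.53 and 4.00 CPM untreated. Its groups did not overlap, and its mean log2 change was 1.70 ± 0.17 (edgeR adjusted p = 1.58e-06). Csnk1d and Csnk1e, casein kinases that phosphorylate PER proteins, fell by 0.60 and 0.64 on the log2 scale (edgeR adjusted p = 0.000128 and 0.000292). Arntl, the partner of CLOCK, was at 15.5 and 14.5 CPM with 4OHT in the DGCR8 line, against 16.2 and 16.8 CPM untreated, and at 13.6 CPM in the Drosha line, against 20.9 and 20.2 CPM untreated.

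In single lines at 96 h, the list had 1 gene higher and 2 lower in the DGCR8 line (Rora, Csnk1e and Csnk1d) and 4 higher and 5 lower in the Drosha line, of 21 tested in each. Over all genes 8.25% were called higher and 5.22% lower in the DGCR8 line, and 12.7% higher and 11% lower in the Drosha line. Among the list genes, Rora (1.44 ± 0.23), Timeless (-0.57 ± 0.12) and Csnk1d (-0.67 ± 0.14) were among those with the smallest p in the Drosha line (edgeR adjusted p = 0.000709, 0.00317 and 0.00376). Each of the 2 casein kinase calls in the DGCR8 line was lost when either untreated library was left out.

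Across all 23 floxed libraries, the gene whose log2 CPM followed Cry1 most closely among 9388 genes was Dhodh, which encodes an enzyme of pyrimidine synthesis (Pearson r = 0.93). It was followed by Nfyb, a subunit of the CCAAT-binding factor NF-Y (0.92), the kinase gene Pim3 (0.91), the selenophosphate synthetase gene Sephs2 (0.90) and Bcl2l2, a gene of the BCL-2 family (0.90). Dhodh was at 30.1 and 30.8 CPM with 4OHT at 96 h in the DGCR8 line, against 53.2 and 50.3 CPM untreated. With the line means removed, its r was 0.927. These libraries share line, time and treatment, so the likeness is a description.

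Untreated cells were compared over time and between lines. No member was called between 96 and 24 h in the DGCR8 line (0 of 7 tested, 1 with an unadjusted p under 0.05) or in the Drosha line (0 of 7, 2 with an unadjusted p under 0.05), by edgeR or DESeq2; 0.0601% and 5.69% of all genes were called. Dbp had the largest such value, at 3.31 and 3.65 CPM at 96 h in the DGCR8 line, against 5.85 and 5.64 CPM at 24 h (log2 fold change -0.72 ± 0.25, edgeR adjusted p = 0.347). In the clock list, the Drosha line had 3 genes lower at 96 h, all repressors: Bhlhe41 (-1.99 ± 0.28), Bhlhe40 (-0.85 ± 0.13) and Ciart (-0.85 ± 0.20), with edgeR adjusted p = 0.00226, 0.00452 and 0.0282. Each of the 3 calls was lost without untreated replicate 2 at 24 h (adjusted p = 0.0634, 0.103 and 0.141).

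Between untreated lines, Clock was higher in the DGCR8 line, at 41.1 to 51.8 CPM, against 32.3 to 43.0 CPM in the Drosha line (log2 fold change 0.29 ± 0.08, edgeR adjusted p = 0.00846). It was 1 of 7 members tested, where 23.3% of all genes were called higher and 25.4% lower. Of the clock list, 7 of 22 tested genes were called higher and 5 lower. Nr1d2 also passed without untreated replicate 2 of the DGCR8 line at 24 h (0.28, edgeR adjusted p = 0.0353) and without untreated replicate 1 of the Drosha line at 96 h (0.28, edgeR adjusted p = 0.0428). Cry1, given as a value only, was 0.31 ± 0.07 higher on the log2 scale in the DGCR8 line. Cell type markers differed between the untreated lines as well. Neuroectoderm markers summed to 73.5 to 97.8 CPM in the DGCR8 line, against 161 to 199 CPM in the Drosha line, and fibroblast markers to 5.05 to 6.63 CPM, against 16.1 to 44.1 CPM. Primitive endoderm markers summed to 37.9 to 48.3 CPM in the DGCR8 line, against 46.8 to 65.2 CPM in the Drosha line, and ES cell markers to 3757 to 4033 CPM, against 2565 to 3036 CPM. Their part in the difference was not tested.

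**Figure D4:**
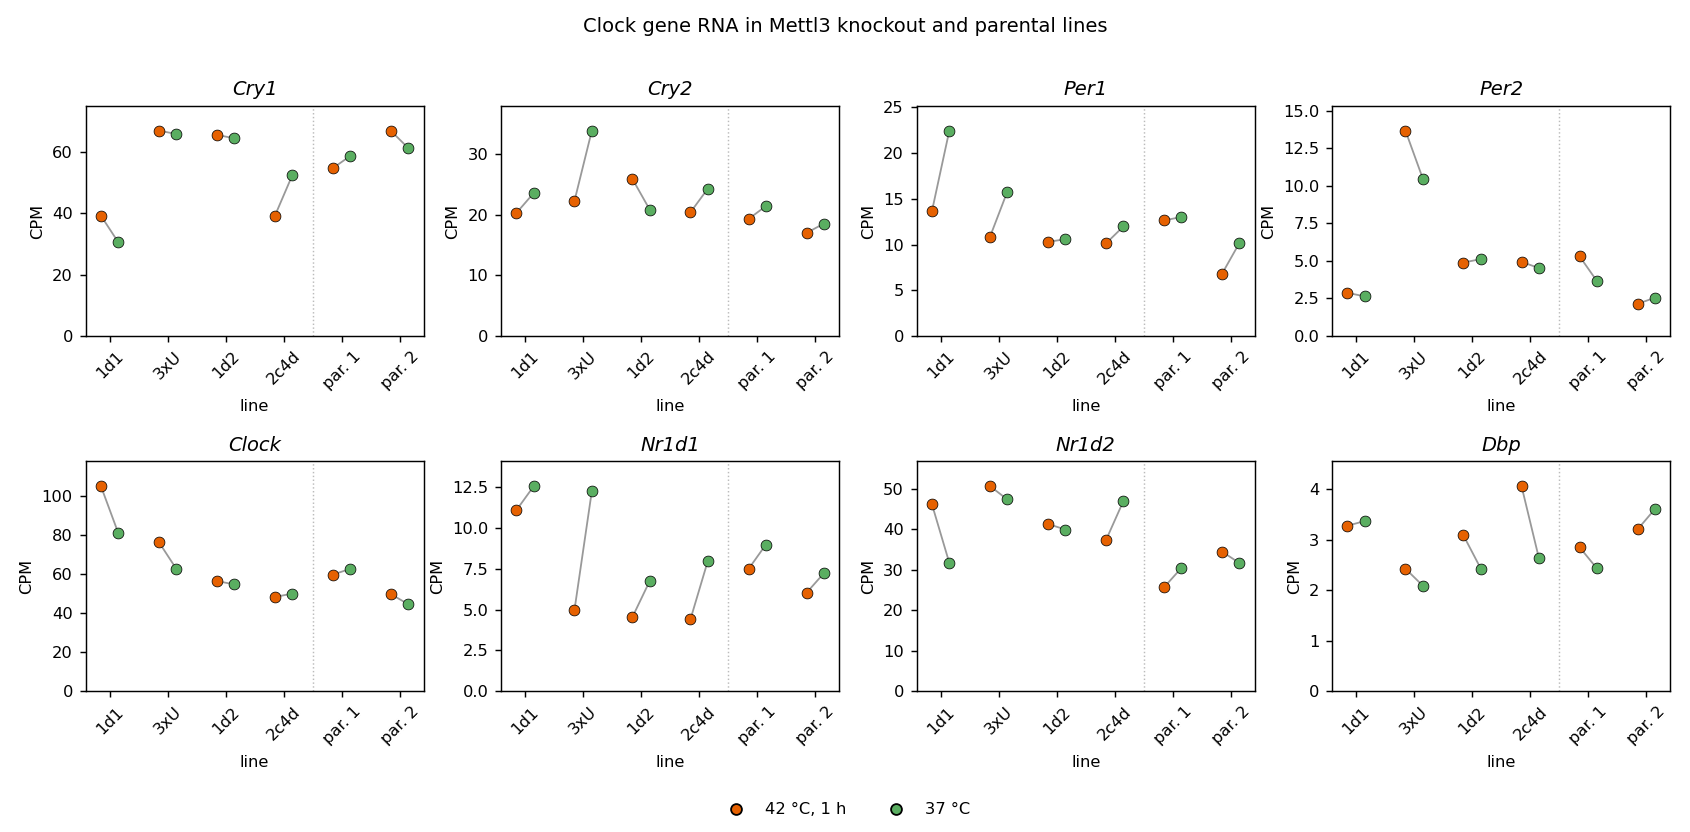
Level of each clock gene (CPM, linear axis from 0) in the 4 Mettl3 knockout lines and the 2 parental samples, 42 °C (orange, left) and 37 °C (green, right) joined by a line for each. Nr1d1 and Per1 lay lower at 42 °C in all 6 pairs, and line 3xU stood highest for Per2 at both temperatures. The share of all genes lower in all 6 pairs was not counted.

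After 1 h at 42 °C, Nr1d1 was lower in every line. In the knockout lines 1d1, 3xU, 1d2 and 2c4d it was at 11.1, 4.96, 4.55 and 4.41 CPM at 42 °C, against 12.5, 12.2, 6.76 and 7.99 CPM at 37 °C. In parental 1 and 2 it was at 7.48 and 6.03 CPM at 42 °C, against 8.97 and 7.22 CPM at 37 °C. Without pairing by line no member was called by edgeR or DESeq2 in either genotype, with 0 members at an unadjusted p under 0.05, where 0.185% of genes were called in the knockout lines and 0.0192% in the parental ones. With the line as a block Nr1d1 fell in the knockout lines (log2 fold change -0.70 ± 0.17, edgeR adjusted p = 0.0359), 1 of 8 members, where 6.77% of all genes were called. In the parental pair it was not called with the block (-0.26 ± 0.25, edgeR adjusted p = 0.679; 0.761% of genes called). The difference between genotypes with the block was -0.44 ± 0.30 (edgeR adjusted p = 0.862; 0.0128% of genes called); without it 0% of genes were called. Thra, which overlaps Nr1d1, changed by -0.11 ± 0.12 with the block in the knockout lines (adjusted p = 0.667).

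Per1 was also lower at 42 °C in all 6 pairs, for example at 10.8 CPM in line 3xU, against 15.8 CPM at 37 °C. How many of all genes were lower in all 6 pairs was not counted. With the block the Per1 change in the knockout lines was -0.39 ± 0.14 (edgeR adjusted p = 0.123). In the clock list the blocked fit of the knockout lines called Klf10, a Krüppel-like repressor, higher (1.19 ± 0.13, edgeR adjusted p = 0.000648) and Wee1, a cell cycle kinase under clock control in liver, lower (-0.58 ± 0.13, edgeR adjusted p = 0.024). Klf10 was at 178, 241, 219 and 191 CPM at 42 °C in 1d1, 3xU, 1d2 and 2c4d, against 50.2, 106, 119 and 103 CPM at 37 °C. In the parental pair the blocked values were 0.75 for Klf10 and -0.64 for Wee1 (edgeR adjusted p = 0.0976 and 0.156).

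Loss of Mettl3 left no member past the test. At 37 °C edgeR called 0 of 8, DESeq2 0, and 0 had an unadjusted p under 0.05, where 0.902% of all genes were called. At 42 °C edgeR called 0 of 8, DESeq2 0, and 1 (Nr1d2) had an unadjusted p under 0.05, where 0.64% were called. Cry1 was at 30.6, 65.9, 64.5 and 52.5 CPM in the knockout lines at 37 °C, against 58.8 and 61.2 CPM in parental cells (log2 fold change -0.17, 95% interval -0.85 to 0.51). Line 1d1 was lowest at 37 °C, and 1d1 and 2c4d were lowest at 42 °C, both at 39.3 CPM. Per2 was at 2.64, 10.5, 5.11 and 4.52 CPM in the knockout lines at 37 °C, against 3.65 and 2.54 CPM in parental cells, with 3xU highest there and again at 42 °C, at 13.7 CPM. The intervals are wide, and changes of this size were not detectable against the spread between lines. Primitive endoderm markers summed to 6.59 to 11.6 CPM in the knockout lines at 37 °C, against 36.6 to 37.7 CPM in parental cells.

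**Figure D5:**
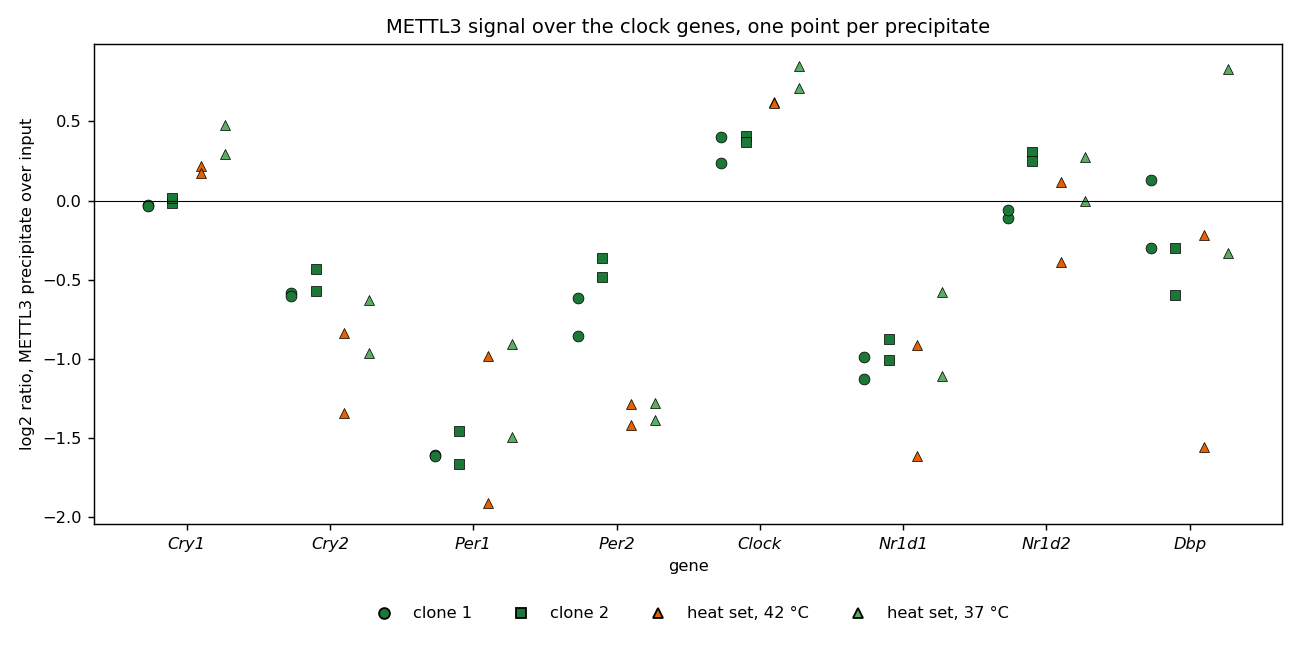
Log2 ratio of METTL3 precipitate over the input of the same clone or sample, counted over each gene, with each point 1 precipitate; circles and squares are METTL3 clones 1 and 2, triangles the heat set at 42 °C (orange) and 37 °C (green). Clock lay above 0 and Per1, Nr1d1, Per2 and Cry2 below 0 in every precipitate.

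METTL3 chromatin signal was counted in 5000-base windows and summed over each gene with its flanks inside those windows, so short genes share windows with neighbours. In the 4 precipitates of clones 1 and 2, Per1 (3 windows) was at log2 ratios of -1.61, -1.62, -1.66 and -1.46 over input, and Clock (21 windows) at 0.40, 0.24, 0.41 and 0.37. The sign was the same in all 4 for both genes. Each clone had a single input library, against which both of its precipitates were set. The 4 ratios are therefore not independent, and an error in an input would recur in both. Clock was higher in the precipitate than in the input (0.35 ± 0.09, edgeR adjusted p = 0.00194). Genes with at least 50 counts in precipitate and input together were ranked by this ratio. Clock stood above 69.1% to 79.2% of them in the 4 precipitates, and Per1 above 0.831% to 1.3%. Per1 (-1.59 ± 0.09), Per2 (-0.58 ± 0.09) and Cry2 (-0.55 ± 0.09) were lower (edgeR adjusted p = 6.53e-12, 8.62e-06 and 1.37e-05). Nr1d1 was lower too, with log2 ratios of -1.13, -0.99, -1.01 and -0.88 in the 4 precipitates (edgeR adjusted p = 1.29e-08). These are 5 of 8 members, 1 higher and 4 lower, where 43.2% of 47124 genes were called (9108 higher and 11241 lower). Dbp also passed without precipitate 2 of clone 1 (-0.38, edgeR adjusted p = 0.00572). Cry1 was at -0.02 ± 0.09. Thra, which overlaps Nr1d1 and shares part of its windows, was at -0.96 ± 0.08. In the 2 samples of the heat set the log2 ratio of Cry1 over input was 0.22 and 0.18 at 42 °C, against 0.48 and 0.29 at 37 °C. These ratios stood above 57.9% to 66% of genes and were not tested. Titles and source names disagree for the first precipitate and the input of each clone, and titles were followed.

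At 42 °C the METTL3 signal over Dbp was lower in both samples of the heat set, labelled H4 and H5: the log2 ratio over input was -1.56 in H4 and -0.22 in H5 at 42 °C, against -0.33 and 0.83 at 37 °C. H4 lay below H5 at both temperatures. Without pairing edgeR called 0 of 8 members (1 with an unadjusted p under 0.05; Dbp log2 change -1.12 ± 0.26, adjusted p = 0.115), where 1.05% of genes were called, and DESeq2 called 1, Dbp (adjusted p = 0.00786). Without the H5 precipitate at 42 °C edgeR called Dbp as well (-1.47, adjusted p = 0.0151). With H4 and H5 as a block, a fit with 1 residual degree of freedom, Dbp (-1.13 ± 0.12, edgeR adjusted p = 4.75e-20) and Nr1d1 (-0.42 ± 0.13, edgeR adjusted p = 0.00958) were lower, where 19.4% of genes were called. Most calls over all genes were lower: 7473 lower and 1808 higher with the block, and 483 lower and 17 higher without pairing. Every member had a negative value in both fits. The median change without pairing was -0.27 for the members and -0.02 for all genes, a difference that was not tested. Dbp covers 2 windows that also hold parts of Sphk2, and the inputs used were taken at 37 °C. Windows of Nr1d1 also hold part of Thra, whose change without pairing was -0.41 ± 0.30, against -0.43 ± 0.25 for Nr1d1. Titles and source names or genotypes disagree for several of these libraries too, and titles were followed.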

How the data were processed

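The authors deposited read counts per gene for RNA and read counts per window of 5000 bases for ChIP, as whole numbers, per the file headers and values. Per the labels' protocols, ribosomal RNA was depleted; Bowtie and mm10 are named in the submitters' processing notes. The aligner's version, the counter and the annotation are not given in the sources used here. Symbols came from a table of Ensembl names (37607 of 39017 IDs matched). The deposited gene width (other unit, bases) gave RPKM.

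Counts were fitted with edgeR 4.0.16 (TMM, filterByExpr, glmQLFit and glmQLFTest, R 4.3.3) per line, over both floxed lines, or over the heat set, with Benjamini-Hochberg adjustment over all genes tested and a threshold of 0.05. CPM are scaled by TMM. ChIP fits used library totals and genes with a mean of at least 10 counts. DESeq2 1.42.0, other factors, no filter, other sample sets, mitochondrial genes left out and libraries left out in turn were alternatives. The code was tested on simulated counts.

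The members and the gene lists were chosen with earlier results of these data known. The named genes are all 8 members, up to 4 called genes of the clock list per comparison by smallest p, Thra, the targeted and heat genes, and the 5 genes most like Cry1; Arntl, Sphk2 and further called genes were added after their values were seen. In the heat set, samples of 1 line deviated together across temperatures (r of 0.681 to 0.865 over 9448 genes), and the line was used as a block beside the unblocked fit. ChIP of Microprocessor subunits was not used here. Some members of the gene list are not reported here.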

Additional observations from a re-analysis of the deposited data

Results flagged for a closer look

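Among 16 sets of 4 knockout libraries (8 genes at each temperature), 1 held a library far from the others. Nr1d1 was at 11.1 CPM in the knockout line 1d1 at 42 °C, while the other 3 lines lay between 4.41 and 4.96 CPM; the gap was 0.918 of the whole range, above Dixon's critical value of 0.829 for 4 samples. Chance flags about 1 in 20 such sets.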

How the results depend on the processing

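No called result reversed under the alternatives run. Among uncalled values at 96 h in the DGCR8 line, Per1 ran from -0.48 to 0.51 and Per2 from -2.18 to 0.03, and the Per2 difference between lines from -0.64 to 1.59. Cry1 at 24 h in the DGCR8 line, a value that prompted the gene set and carries no test, had a log2 fold change between -0.56 and -0.42 when 1 library was left out. Without either untreated library it moved by more than the spread within groups (SD 0.0605 on the log2 scale). The count of members called at 96 h was 0 in the DGCR8 line, 3 in the Drosha line and 3 over both lines when only the compared groups were fitted, and 3 in the Drosha line and 3 over both lines with DESeq2. With 1 library left out it ran from 3 to 5 in the Drosha line and from 4 to 7 over both lines, and the difference between lines gave 0 to 1 called. Between untreated lines, 2 members (Clock and Nr1d2) were called with no filter on low counts and 2 with only the compared groups, and 1 to 2 with 1 library left out. With the line as a block, 1 member was called for heat in the knockout lines. For METTL3 at 42 °C, 1 member was called with DESeq2, 2 with the block of H4 and H5 and 0 to 1 with 1 library left out. Clock, Cry1 and Nr1d2 as the mean of both lines at 96 h were called under all 12 alternatives, Dbp under 10, Per2 under 6 and Cry2 under 5. In the floxed lines the replicate numbers did not pair the libraries alike at all times. Same-number correlations were 0.515 and 0.488 in the DGCR8 line at 48 and 96 h. They were -0.644 in that line at 24 h and -0.117 and -0.367 in the Drosha line at 24 and 48 h. A replicate block ended 1 member call, Per1 in the Drosha line at 96 h (log2 fold change -0.63). With numbers crossed, chosen after seeing the data, 36, 36 and 717 genes were called at 24 h in the DGCR8 line and at 24 and 48 h in the Drosha line, against 16, 30 and 458 without a block. Over all genes, fitting only the compared groups gave 0 calls against 2017 in the DGCR8 line at 96 h and 1830 against 4676 over both lines. DESeq2, no filter and only the compared groups gave 106, 427 and 0 calls against 30 for the difference between lines, 57, 185 and 16 against 9 for untreated DGCR8 cells over time, 115, 46 and 13 against 29 for heat in the knockout lines, 779, 383 and 4 against 141 for Mettl3 loss at 37 °C and 753, 380 and 1 against 100 at 42 °C. The line block gave 1058 calls for heat in the knockout lines and 119 against 3 in the parental ones. For METTL3 at 42 °C, TMM, DESeq2 and the block gave 124, 2079 and 9281 calls against 500. With 1 library left out, the calls over all genes ran from 401 to 2953 in the DGCR8 line at 96 h, from 1 to 1876 for the difference between lines, and from 28 to 741 for untreated Drosha cells over time. They were 0 in every case for untreated DGCR8 cells over time, and ran from 14 to 23 for heat in the knockout lines, from 0 to 99 for Mettl3 loss at 37 °C, from 0 to 55 at 42 °C and from 2 to 1286 for METTL3 at 42 °C. With 1 or 2 libraries a group, Per2 at 4 to 35 counts in the floxed lines limits what can be seen. The causes were not tested.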
